A study of Mus musculus with 2 samples.

Results

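Il1rl1, which encodes the interleukin-33 receptor ST2, and 9 related ligand, receptor and antagonist genes of the interleukin-1 family were followed in apoptotic osteoblasts from young and old mice. The set holds 10 of the 55487 genes measured: the receptors and their partner Il1rl1, Il1r1, Il1rl2, Il18r1, Il1rap and Sigirr, the ligands Il33, Il18 and Il1rn, and the soluble inhibitor Il18bp. They were taken by gene symbol in the GENCODE annotation of GRCm38, and every symbol had a single identifier. The set was chosen by family and by the measured old over young difference of Il1rl1 in these libraries, so its values are a description. There was 1 RNA library per age, which allows no replicate check and no p-value. The young library rested on 16333396 reads and the old on 18114336.

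Both libraries came from mouse bone pieces in culture. Adherent cells were passaged 3 times to obtain marrow mesenchymal stem cells, spent 3 days in osteogenic medium and were exposed to ultraviolet light for 0.5 h, and by Trypan Blue, a dye that enters dying cells, over 90% were then positive. The groups differ in the age label, young or old, and also in a treatment label, which reads day 0 for young and day 5 for old. Age and day therefore cannot be told apart. No source used here gives the strain, sex, exact ages or number of animals behind a library.

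Interleukin-1 family cytokines act through paired receptors: one chain binds the ligand and a second, accessory chain completes the complex. The cytoplasmic TIR domains of the pair then recruit the adaptor MyD88 and IRAK kinases, which activate NF-kB and MAP kinases. Il1rap is the accessory chain for the receptors of interleukin-1, interleukin-33 and interleukin-36, whereas interleukin-18 uses Il18r1 with Il18rap. Soluble ST2, a shorter product of Il1rl1, lacks the membrane anchor and traps interleukin-33. ST2 is best known on mast cells, type 2 innate lymphoid cells and regulatory T cells, and fibroblast-like cells can also make it. In bone, interleukin-1 drives osteoclast formation, while interleukin-33 and interleukin-18 have been described as restraining it.

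Among the members that reached a mean of 1 FPKM, Il1rl1 differed most. It was at 3.29 FPKM (fragments scaled to gene length and library size) in young and 26.5 FPKM in old cells, on 157 and 1400 reads. The FPKM ratio, old over young, was 8.04 with a 95% counting interval of 6.81 to 9.54. Such intervals are exact Clopper-Pearson intervals of the old library's share of the reads. They cover counting error only, and PCR copies are not independent molecules. The log2 ratio of FPKM + 1, a scale that shrinks differences of low genes, was 2.68, and it ranked 6 from the highest of 12561 genes that reached a mean of 1 FPKM over the pair of libraries. Of those genes, 1.97% were at least 2-fold higher in old on this scale and 0.868% at least 2-fold lower, and the median was −0.07. By level, Il1rl1 lay above 15.5% of these genes in young and above 62.0% in old cells. In bulk RNA, more cells that express a gene and more RNA per cell cannot be told apart.

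Il1rl1 lies on the forward strand of chromosome 1, at 40429570 to 40465415 (GRCm38, ENSMUSG00000026069). No exon base was shared with another annotated gene, and 0.173% of its sequence words of 50 bases occurred in another gene. The annotation lists 5 transcripts of 375 to 5302 bases. One FPKM value stands for all of them, so membrane and soluble ST2 were not separated. RefSeq gives Il1rl1 2 start sites 10.06 kb apart on GRCm38.p6. Their windows, from 250 bases before to 50 after the start, are printed with that of Il18rap, the other gene of the receptor cluster that was at least 2-fold higher in old.

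Il1rl1, upstream start, chr1:40429320-40429619, + strand: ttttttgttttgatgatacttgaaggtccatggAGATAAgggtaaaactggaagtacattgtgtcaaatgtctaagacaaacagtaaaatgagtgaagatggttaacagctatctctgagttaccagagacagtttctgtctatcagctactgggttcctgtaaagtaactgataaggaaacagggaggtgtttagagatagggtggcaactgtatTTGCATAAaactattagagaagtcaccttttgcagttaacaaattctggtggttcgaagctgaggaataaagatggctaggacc
Il1rl1, downstream start, chr1:40439379-40439678, + strand: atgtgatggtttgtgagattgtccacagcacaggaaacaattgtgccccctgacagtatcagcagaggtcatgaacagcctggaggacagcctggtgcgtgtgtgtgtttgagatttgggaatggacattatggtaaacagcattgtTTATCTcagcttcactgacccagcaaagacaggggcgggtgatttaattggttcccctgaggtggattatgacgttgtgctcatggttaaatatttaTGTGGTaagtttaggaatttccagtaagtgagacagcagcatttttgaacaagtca
Il18rap, chr1:40515112-40515411, + strand: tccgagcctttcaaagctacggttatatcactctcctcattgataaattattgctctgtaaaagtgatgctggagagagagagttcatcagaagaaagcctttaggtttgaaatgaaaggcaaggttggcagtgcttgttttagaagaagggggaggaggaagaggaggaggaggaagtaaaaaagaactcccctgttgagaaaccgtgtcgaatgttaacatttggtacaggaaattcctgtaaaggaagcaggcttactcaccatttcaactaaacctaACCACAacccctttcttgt

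Capitals mark matches on either strand, where N is any base. GATA sites were searched as AGATAA and AP-1 sites as TGANTCA. Sites of the C/EBP and RUNX factors were searched as TTGCNNAA and TGTGGT. The letters for an interferon response element were GAAANNGAA, and those for NF-kB, in a strict form, were GGGANNTTC. A GATA match stood 217 bases before the upstream start of Il1rl1 and another, on the reverse strand, 103 bases before the downstream start. AGATAA occurs in 11.2% of the 32851 RefSeq windows and in none of the other 15 windows of the members and Il18rap. The upstream window also held a C/EBP match, found in 10.8% of all windows, and the downstream one a RUNX match, found in 16.8%. Il18rap held a RUNX match 31 bases after its start. AP-1 letters, present in 7.81% of all windows, occurred in an Il1rn window, and the interferon element, present in 8.56%, in that of Il1rap. The NF-kB letters, present in 3.94% of all windows, were in none of the 17 windows searched. Looser forms of the NF-kB letters were not searched, so their absence is not shown. These are matches of letters and no binding was measured. The gene-level values do not show which start site was used.

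Il1rl1 sits in a cluster of 6 receptor genes, all on the forward strand, which spans 477.6 kb of chromosome 1 in the order Il1r2, Il1r1, Il1rl2, Il1rl1, Il18r1, Il18rap. Levels within it were uneven. Il18rap, the accessory chain for interleukin-18 and not one of the 10 members, was at 0.626 FPKM in young and 5.73 in old cells, on 24 and 244 reads. Its ratio was 9.17 [6.02 to 14.6] and its log2 ratio 2.05, and it passed the filter on mean FPKM through the old library. Il18r1, the ligand-binding chain, lies between Il1rl1 and Il18rap and begins 136 bases after the end of Il1rl1. It had 1 read in young and 2 in old cells, a ratio of 1.80 [0.0939 to 106], and was at most 0.0437 FPKM. By FPKM, the accessory chain was thus far above its binding chain in both libraries, 25.8-fold [4.21 to 1060] in the young and 131-fold [35.9 to 1089] in the old. These folds rest on mean transcript lengths, 2349 bases for Il18rap. Its protein-coding transcript has 4889 bases, and its other annotated transcripts, from 622 bases, are retained introns. With the longer length the folds would be smaller.

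On the other side of Il1rl1, Il1rl2 and Il1r1 were closer to even. Il1r2, the decoy receptor that binds interleukin-1 without signalling, had 2 reads in each library. Outside the cluster, Map4k4, a kinase gene, was at 114 and 109 FPKM, and Slc9a4, a sodium-proton exchanger, had 0 reads in both. The 4 other annotated genes inside the cluster never had more than 3 reads. The larger differences of the region therefore lay at Il1rl1 and Il18rap, with an almost silent gene between them.

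**Figure D1:**
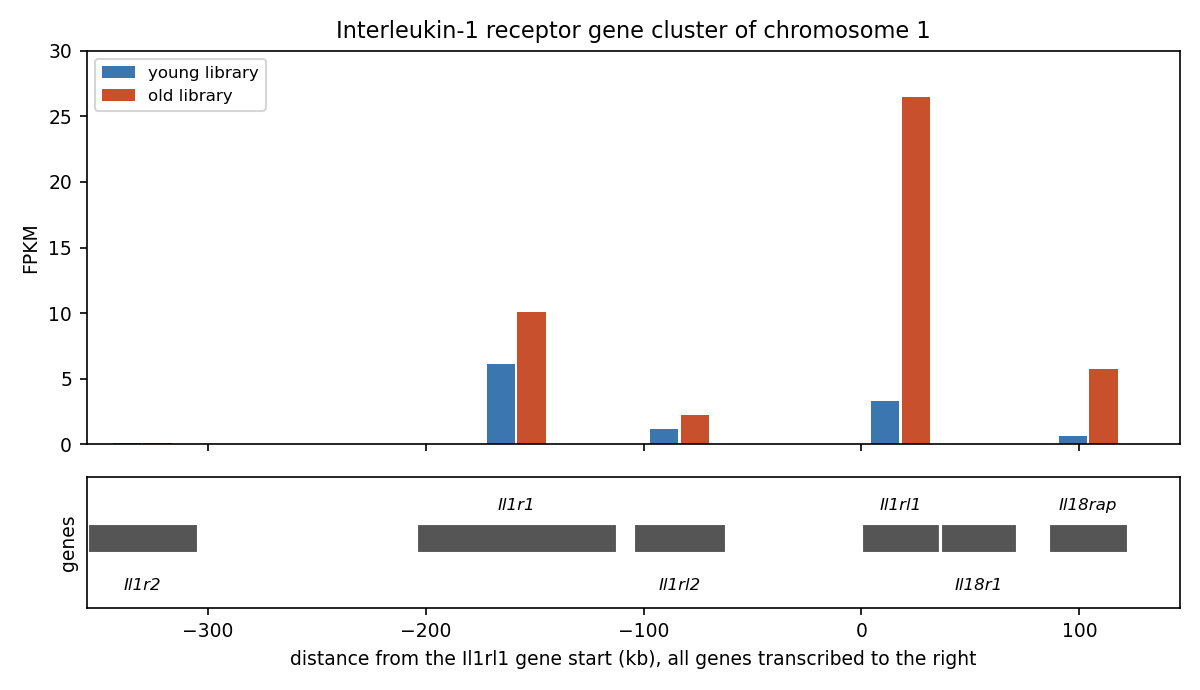
Bars give FPKM in the young (blue) and old (orange) library for the 6 receptor genes of the chromosome 1 cluster, and the lower track gives each gene's extent by distance in kb from the start of Il1rl1. Il1rl1 goes from 3.29 to 26.5 FPKM and Il18rap from 0.626 to 5.73, while Il18r1 between them stays at or under 0.0437.

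Il1rap, the shared accessory chain (chromosome 16, 26581704 to 26730117), was at 3.98 FPKM in young and 8.59 in old cells, on 184 and 440 reads. Its FPKM ratio was 2.16 [1.81 to 2.58] and its log2 ratio of FPKM + 1 was 0.94, just under 2-fold; it was past 2-fold at 1.01 when the old library was divided by the median ratio of all genes. The promoter window of Il1rap was the richest in G and C among the members and Il18rap, at 72.0%, against 38.7% and 44.7% for Il1rl1. Like Il1rl1, Il1rap was higher in the old library, by a smaller factor.

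Il1r1, the signalling receptor for interleukin-1, was at 6.09 FPKM in young and 10.1 in old cells, on 369 and 679 reads, a ratio of 1.66 [1.46 to 1.89]. Il1rl2, the interleukin-36 receptor, was at 1.15 and 2.25 FPKM, on 47 and 102 reads, a ratio of 1.96 [1.37 to 2.83]. Neither reached 2-fold, with log2 ratios of 0.65 and 0.60. All 3 receptors that pair with Il1rap were thus higher in the old library beyond counting error.

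The makeup of these receptors differed between the libraries. The summed level of Il1r1, Il1rl1 and Il1rl2 was 10.5 FPKM in young and 38.8 in old cells. Il1rl1 made up 31.2% of that sum in young and 68.2% in old cells. Il1rl1 was at 0.540 times the level of Il1r1 [0.445 to 0.653] in young and at 2.62 times [2.39 to 2.87] in old cells. Il1rap was at 0.378 times the summed level of its 3 partners in young and 0.221 times in old cells. Against Il1rl1 alone, Il1rap stood at 1.21 [0.973 to 1.51] and 0.325 [0.291 to 0.362]. These proportions rest on the mean transcript length of Il1rl1. With its longest transcript, Il1rap would be at 2.20 times Il1rl1 in young and 0.589 times in old cells, and Il1rl1 at 0.298 and 1.44 times Il1r1. With its shortest, Il1rap would be at 0.155 and 0.0417 times Il1rl1, and Il1rl1 at 4.21 and 20.4 times Il1r1. Which of a pair was the more abundant in young cells was therefore not settled. The factor by which a pairwise ratio differed between the libraries does not depend on this length if the same length holds for both. Whether the mix of transcripts was alike in the libraries was not measured. In old cells Il1rl1 was above both Il1r1 and Il1rap with each of these lengths, but Il1r1 and Il1rap were kept at their mean lengths. The annotated transcripts of Il1rap run from 583 to 4520 bases, so its order against Il1rl1 in old cells was not settled either.

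**Figure D2:**
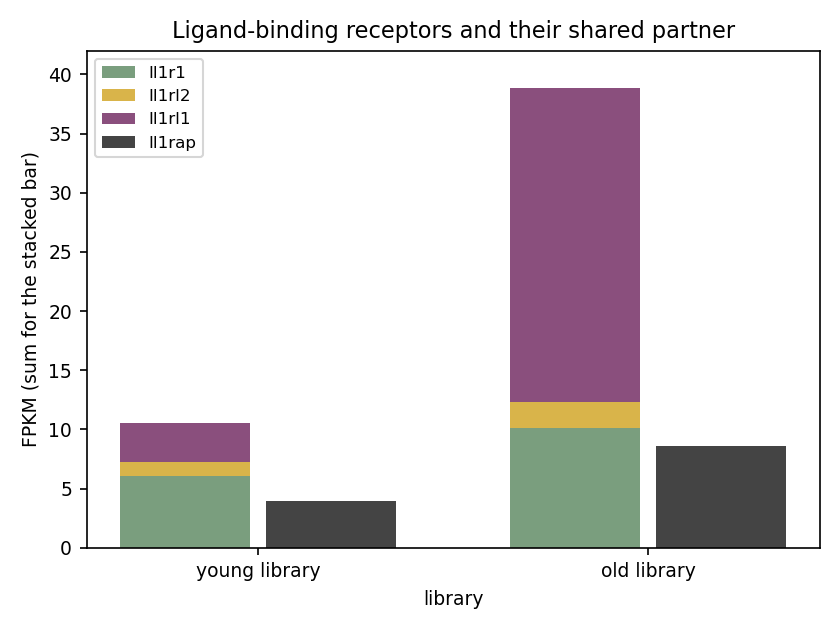
Stacked bars give the summed FPKM of Il1r1, Il1rl2 and Il1rl1, and dark bars that of their accessory chain Il1rap, in each library. The stack reaches 10.5 FPKM in young and 38.8 FPKM in old cells, and Il1rap is 3.98 and 8.59.

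Sigirr, a family member that dampens signalling by the others, was scarce, at 0.150 FPKM in young and 0.857 in old cells. The reads were 3 and 19, with a ratio of 5.71 [1.68 to 30.1]. The remaining receptor genes of the family were near the limit of detection: Il1rapl1, an accessory-like protein of neurons, had 4 reads in each library, and its relative Il1rapl2 had 0 in both. Among 11 listed receptor and binding-protein genes, 6 passed the filter, and the 2 at least 2-fold higher were Il1rl1 and Il18rap. Of all 12561 genes tested, 1.97% were at least 2-fold higher. The set was chosen by the difference of Il1rl1, and Il18rap passed the filter through the old library, so nothing is read from this count.

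Ligand mRNA was led by Il18, a cytokine made as an inactive precursor. Il18 was at 19.3 FPKM in young and 14.9 in old cells, on 248 and 212 reads, a ratio of 0.771 [0.639 to 0.930] and a log2 ratio of −0.35. Its soluble inhibitor Il18bp was at 6.33 and 5.26 FPKM, on 155 and 143 reads, a ratio of 0.832 [0.658 to 1.05]. Il18bp stood at 0.328 times the level of Il18 [0.267 to 0.402] in young and 0.354 times [0.284 to 0.440] in old cells. Ligand and inhibitor were thus in a similar proportion in both, within counting error. The interleukin-18 axis held the ligand, its inhibitor and, in the old library, the accessory chain, with the ligand-binding receptor almost undetected.

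Il33, the ligand of ST2, which nuclei store and dying cells release, was low in both libraries. It was at 0.140 FPKM in young and 1.31 in old cells, on 3 and 31 reads, a ratio of 9.32 [2.91 to 47.6]. Per unit of Il1rl1, Il33 stood at 0.0426 [0.00869 to 0.127] and 0.0493 [0.0334 to 0.0704], so the ligand was far below its receptor in both. Il1rn, the receptor antagonist that blocks Il1r1, had 0 reads in young cells and 19 reads or 0.723 FPKM in the old. With the 0 set to a limit of 3 reads, or 0.127 FPKM, the old value was 5.71 times that limit. This is not a lower counting bound on the ratio. The counting interval of Il1rn reached up to 0.156 FPKM in young cells and down to 0.436 FPKM in old cells. Il33 and Il1rn were below the filter of 1 FPKM, as were Sigirr and Il18r1.

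The agonists that Il1rn opposes were barely detected. Il1a, an interleukin-1 form active without cleavage, had 0 reads in young and 2 in old cells, and Il1b, the inflammasome-processed form, had 1 in each. Of the interleukin-36 group, Il1f9 had 0 and 2 reads, and Il1f6, Il1f8 and the antagonist Il1f5 had 0 in both, as did Il1f10, a related cytokine. The receptors of the old library thus stood beside very little mRNA for interleukin-1, interleukin-36 or interleukin-33. Proteins, and cytokines supplied by serum or other cells, were not measured.

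Over the set, 6 of the 10 members passed the filter of a mean of at least 1 FPKM. Il1rl1 alone of these 6 members was at least 2-fold higher in old and none was lower, beside 1.97% and 0.868% of all genes tested. The median log2 ratio of the 6 was 0.62, beside −0.07 over all genes tested. Over all 10, with the young value of Il1rn set to its limit of 3 reads, the median log2 of the FPKM ratio itself was 1.04. The counting interval lay wholly above 1 for 4 of the 6 (Il1rl1, Il1r1, Il1rap and Il1rl2), a state shared by 20.6% of 12554 genes with an annotated length. It lay below 1 for Il18, as for 33.5% of genes, and included 1 for Il18bp. Since the set was chosen with these libraries, nothing is read from these counts.

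With mean transcript lengths, the order of levels differed at the top. In the young library Il18 led at 19.3 FPKM, followed by Il18bp and Il1r1, whose intervals overlapped, then Il1rap and Il1rl1, which also overlapped, and Il1rl2. In the old library Il1rl1 led, followed by Il18, then Il1r1 and Il1rap, whose intervals overlapped, Il18bp and Il1rl2. The interval of Il1rl2 overlapped that of Il33 in the old library. Sigirr, Il33, Il18r1 and Il1rn could not be ordered in the young library, and Il33, Sigirr and Il1rn could not in the old. These orders depend on the gene length used: divided by its longest transcript, Il1rl1 would be at 1.81 and 14.6 FPKM, next to Il18 in the old library instead of above it, and divided by its shortest at 25.6 and 206 FPKM, above Il18 and Il1r1 in the young library too.

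**Figure D3:**
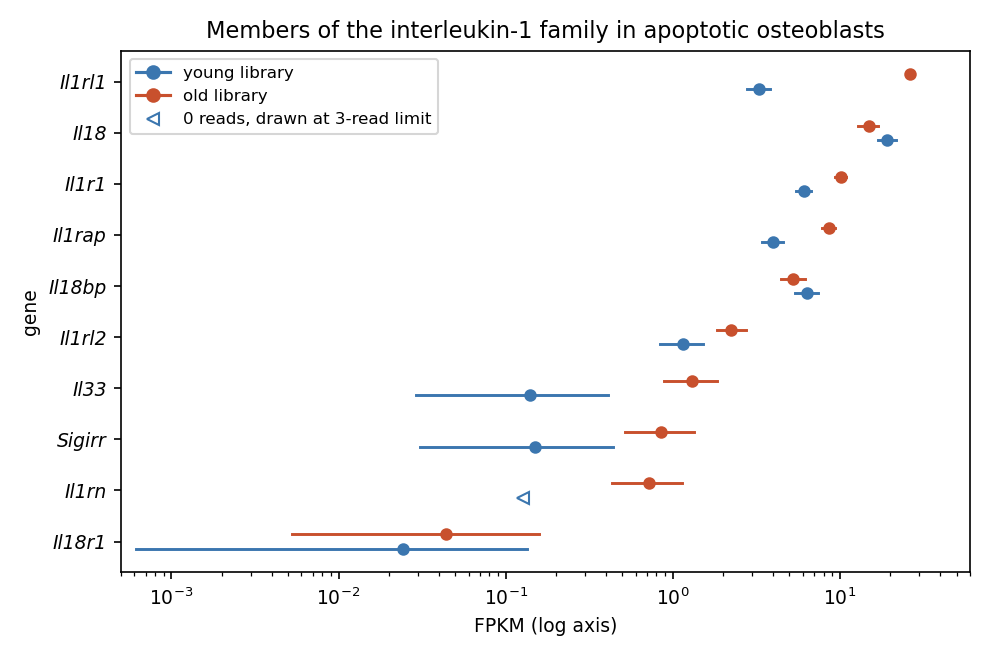
Each row gives a member's FPKM on a log axis in the young (blue) and old (orange) library, with 95% counting intervals as lines; the open triangle marks 0 reads for Il1rn, drawn at its limit of 3 reads. Il1rl1 shows the widest gap among the members that passed the filter, and Il18 and Il18bp are lower in the old library.

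Most markers of the mast cells and lymphocytes known for ST2 were at 0. Of 9 mast cell markers, 7 had 0 reads in both libraries, among them the defining Cpa3 and Ms4a2, and the summed level was 0.208 FPKM in young and 0.362 in old cells. Of 8 markers of type 2 innate lymphoid and T cells, 5 had 0 in both, including the defining Cd3e and Il7r. Gata3, a factor that these lymphocytes share with other tissues, was at 3.95 and 6.46 FPKM, on 59 and 107 reads. The pan-leukocyte marker Ptprc had 1 read in young and 0 in old cells, but the summed level of 4 leukocyte markers was 0.296 and 0.888 FPKM. Of 6 endothelial markers, the defining Pecam1 was at 0.322 and 0.134 FPKM and Cdh5 had 0 and 2 reads. Their summed level was 0.748 and 0.675 FPKM. No gene of the leukocyte and endothelial lists passed the filter or had more than 17 reads in a library. Of 6 macrophage markers, 3 had 0 in both, among them the defining Adgre1. The other defining marker, Csf1r, had 1 read in young and 6 in old cells. The 0 of Itgam is uncertain, since 80.5% of its words are shared with other genes and another gene overlaps 68.7% of its exon sequence. The lysozyme Lyz2, however, was at 21.3 FPKM in young and 18.4 in old cells, on 458 and 438 reads. The lysosomal Cd68 was at 4.51 and 4.36 FPKM, on 70 and 75 reads. The summed level of this list was 25.8 and 22.9 FPKM, and its part in the differences of the family genes was not tested.

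Of 8 osteoblast markers, 7 passed the filter, 1 was at least 2-fold higher in old and none lower. The shares over all genes tested were 1.97% and 0.868%. The collagen gene Col1a1 was at 8568 and 6788 FPKM, and the lineage factors Runx2 at 92.1 and 72.7 and Sp7 at 55.5 and 28.9. Alkaline phosphatase, Alpl, was at only 2.78 and 3.28 FPKM. Bglap, the late marker osteocalcin, was below the filter, on 3 and 6 reads. Its value is uncertain, since 55.2% of its words are shared with other genes. The marker past 2-fold was Spp1, the matrix protein osteopontin, with a ratio of 7.74.

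Some epithelial markers differed in the direction of Il33 and Il1rl2, which epithelia also make. Krt14, a basal keratin, was at 0.391 FPKM in young and 2.39 in old cells, on 9 and 61 reads, and the cadherin Cdh1 had 4 and 33 reads. The defining marker Epcam had 0 in both libraries, as did Krt5. The summed level of the 4 markers was 0.478 and 3.04 FPKM. Their part in the differences of the family genes was not tested.

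Below the receptors, the signalling genes lay close to even. Of 28 listed genes, 26 passed the filter, 1 was at least 2-fold higher in old and none lower, beside 1.97% and 0.868% of all genes tested. The median log2 ratio was −0.08 beside −0.07 for all genes tested. The one at 2-fold was Tifa, an adaptor that binds TRAF6, at 2.54 FPKM in young and 6.45 in old cells, a ratio of 2.54 [1.92 to 3.38]. Peli2, a ubiquitin ligase acting on IRAK proteins, was at 5.05 and 9.25 FPKM, the NF-kB subunit Nfkb1 at 41.7 and 57.7, and the kinase Irak4 at 3.71 and 5.44. The list thus held no difference near that of Il1rl1. The value of Ube2v1, a ubiquitin-conjugation cofactor, is uncertain, since 77.7% of its words are shared with other genes.

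Genes for processing and release of the cytokines also differed little. Of 19 listed, 9 passed the filter, none was 2-fold higher or lower, and the median was 0.17. Among all genes tested, 1.97% were at least 2-fold higher and 0.868% at least 2-fold lower. The largest differences were those of Casp4, the inflammatory caspase-11 of mice, at 16.9 FPKM in young and 23.0 in old cells, and Gsdmd, the pore protein gasdermin D, at 23.1 and 30.2. Gsdme, a gasdermin cut by caspase-3, was at 4.66 and 5.93 FPKM, and the calpain Capn1 at 72.8 and 63.3. Inflammasome genes were scarce: Nlrp3 had 4 and 3 reads, and the adaptor Pycard was listed at 0 in both libraries.

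Genes that interleukin-1 receptors are known to induce in other cells formed the last list. Of 28 listed, 19 passed the filter, 6 were at least 2-fold higher and 1 lower, 17 had a log2 ratio above 0, and the median was 0.58. Of all 12561 genes tested, 1.97% were at least 2-fold higher, 0.868% at least 2-fold lower, and 40.4% had a log2 ratio above 0. Lcn2, an iron-scavenging lipocalin, was at 1.19 FPKM in young and 13.5 in old cells, and Saa3, a serum amyloid, at 2.71 and 17.8. The chemokines Ccl7 and Cxcl5 were at 6.57 and 32.5 FPKM and at 0.321 and 4.17, and Cxcl5 passed the filter through the old library. Other pathways induce these genes too, and several were known from earlier results of these libraries. The 1 gene at least 2-fold lower was Mmp13, at 15.3 FPKM in young and 5.84 in old cells, a ratio of 0.383 [0.332 to 0.440]. Nfkbia, the inhibitor that NF-kB itself induces, was at 60.5 and 53.8 FPKM, and Tnfsf11, the osteoclast factor RANKL, was listed at 0 in both. Mmp13, Nfkbia and Tnfsf11 were chosen after their values were seen.

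**Figure D4:**
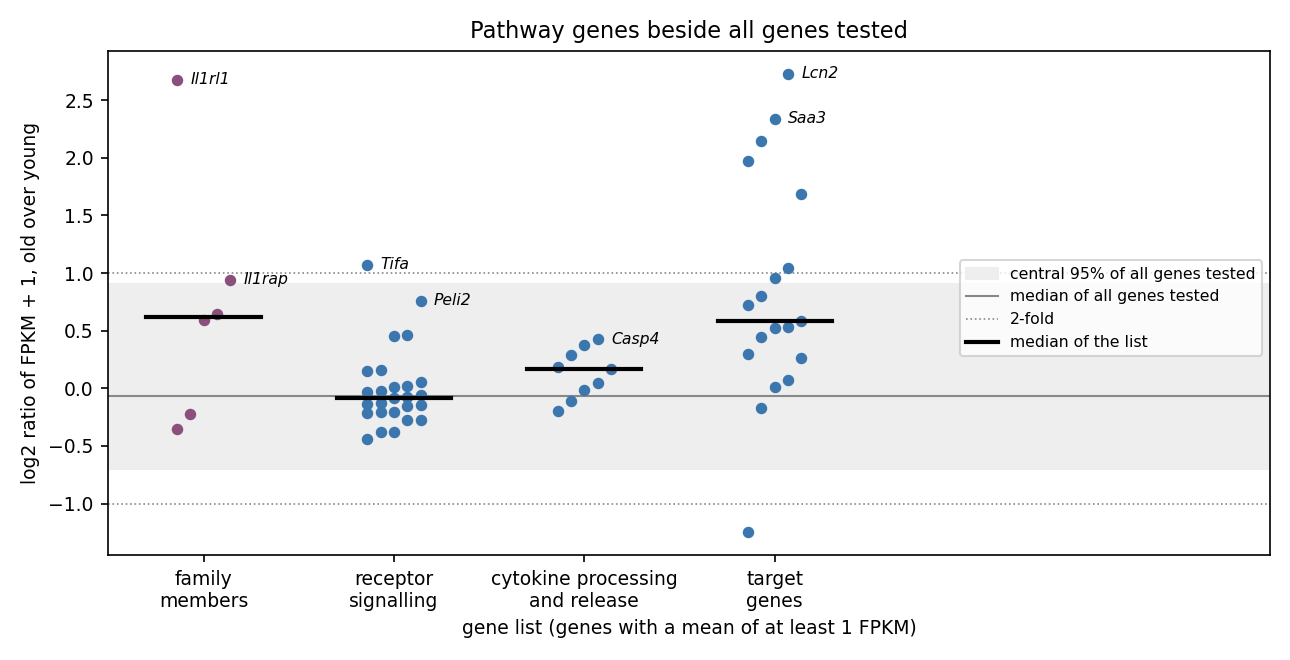
Each point is 1 gene of a list that reached a mean of 1 FPKM, placed by its log2 ratio (FPKM + 1, old over young); thick bars are list medians, the grey band is the central 95% of all genes tested and dotted lines mark 2-fold. The median is 0.62 for the members, −0.08 for receptor signalling, 0.17 for processing and release and 0.58 for target genes.

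The genes whose log2 ratio was nearest to that of Il1rl1, among protein-coding genes whose mean was 10 FPKM or more, were Ifi27l2a (2.51), Tnfrsf9 (2.48), Ccn5 (2.45), Spp1 (2.95) and Saa3 (2.34). This likeness is the distance between 2 log2 ratios, between 0.17 and 0.34. Each of these ratios carries counting error, and with 1 library per age no replicate error can be given. Tnfrsf9, the costimulatory receptor 4-1BB, was also near Il1rl1 in level, at 2.91 FPKM in young and 20.8 in old cells. Spp1 was far more abundant, at 224 and 1732 FPKM; another gene overlaps 18.8% of its exon sequence.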

How the data were processed

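Messenger RNA was measured by RNA sequencing in 1 library from young and 1 from old mice, grouped by the age label. The authors deposited 1 FPKM value per Ensembl gene and library. The submitters' processing notes name fastp, STAR, HTSeq, edgeR and mm10, with no roles or versions. The sources used here do not give the annotation, gene length, filters or strand use. GENCODE M21, made for GRCm38 (mm10), held 55227 of the identifiers.

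Reads were worked out from the FPKM steps with the rounded mean transcript length as gene length. Of the values above 0, 97.6% in each library came out whole within 0.01. No count test was run, since there is 1 library per group. The log2 ratio used a pseudocount of 1 and genes whose mean reached 1 FPKM, and 2-fold or more was called. Intervals are at 95%, and 0 reads were given a limit of 3 reads per library. The calculation was tested on simulated data. Python 3.11.15, pandas 2.3.3, scipy 1.17.1 and matplotlib 3.10.9 were used.

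The members and lists were chosen with earlier results of these data known. Besides the members, the text names every other listed ligand and receptor gene of the family, up to 4 genes of each pathway list with the largest difference, the 5 genes nearest to Il1rl1, genes of the chromosome cluster with a neighbour on each side, and defining cell markers. Other named genes were chosen after their values were seen, among them Krt14, Krt5, Lyz2, Cd68, Alpl, Bglap, Gata3, Ube2v1, Nlrp3, Pycard and Mmp13. Promoter windows come from RefSeq on GRCm38.p6, which held 9 of the 10 members. Alternatives changed the pseudocount, the filter and the scaling.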

Additional observations from a re-analysis of the deposited data

How the results depend on the processing

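Over 11 single genes (the 10 members and Il18rap) and 6 alternatives, no log2 ratio changed sign, and 17 of 66 values left the counting interval of the reported one. Only the changes of scaling could reverse a sign, since a change of pseudocount cannot. The filter leaves the value of a single gene as it is, so those values were the same by construction. That of Il1rl1 ranged from 1.92 at a pseudocount of 5 to 2.97 at 0.1, and that of Il18rap fell under 2-fold, to 0.93, at a pseudocount of 5. Members at least 2-fold higher numbered 2 in place of 1 at a pseudocount of 0.1 and after division of the old library by the median ratio, both with Il1rap, and 2 with no filter, with Il33. The members' median was 0.34 at a pseudocount of 5 and 1.16 over the 2 genes left at a mean of 10 FPKM or more. Over all genes, the reported 248 higher and 109 lower became 408 and 236 (pseudocount 0.1), 101 and 20 (pseudocount 5), and 106 and 27 (stricter filter, a mean of 10 FPKM). The signalling list had 0 genes higher at a pseudocount of 5 and under the stricter filter. With no filter the median of the processing list was 0.0. Among targets, 3 were higher under the stricter filter and 0 lower at a pseudocount of 5. A larger pseudocount shrinks low genes by construction, and the stricter filter tests fewer genes. Depth limits Il33, Il1rn, Sigirr and Il18r1, with at most 31 reads in a library. No paired analysis was possible because each group has 1 library.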
